A study of Mus musculus with 2 samples.

Results

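The immature granule neurons of the dentate gyrus were examined in single-cell RNA-seq libraries of the mouse hippocampus. A barcode was taken as a member when it had UMIs (unique molecular identifiers, each standing for 1 captured transcript) for at least 4 of the 6 genes Dcx, Sox11, Igfbpl1, Draxin, Cd24a and Neurod1. It could hold no more than 1 of the interneuron-lineage genes Dlx1, Dlx2, Dlx5 and Dlx6os1, 1 of the division genes Mki67, Top2a and Cdk1, and 1 of the Cajal-Retzius genes Trp73, Lhx1 and Lhx5. Members were thus chosen by measured values, the detection of these 16 genes in each barcode, and no UMI level and no difference between the libraries entered the choice. Only barcodes with 500 genes or more, and no more than 15% of UMIs from mitochondrial genes, were considered. This gave 531 members among 14560 kept barcodes: 286 of 6435 in the wild-type library and 245 of 8125 in the 60TM library.

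The wild-type library (WT) came from C57BL6/J mice. The other came from GFAP-hGFAP mice of the 60TM line on the same background, which carry human GFAP driven from a GFAP promoter and are used to model Alexander disease, in which astrocytes are affected. GFAP promoters act in astrocytes and also in the radial glia-like stem cells of the dentate gyrus. The animals of both groups were 7 weeks old, and the hippocampi of 3 mice per genotype were dissociated with papain and read out with Chromium 3′ chemistry. Each genotype was thus 1 library. No difference between the genotypes could be tested, and the intervals below, at 95%, cover the error of counting UMIs or barcodes alone.

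Granule neurons are among the few neurons that are still made in the adult mouse brain. Radial glia-like stem cells of the subgranular zone give rise to intermediate progenitors that express Eomes, these become neuroblasts with Dcx, and the young postmitotic neurons pass through a stage with calretinin, the product of Calb2, before they take on calbindin (Calb1) and a mature synaptic programme. Prox1, a homeobox factor, marks and maintains granule identity through this sequence.

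The libraries held 63532407 UMIs over 6861 barcodes (WT) and 80684152 over 8733 barcodes (60TM). Members had a median of 8895 UMIs and 3316 genes in WT and of 8775 UMIs and 3324 genes in 60TM, and their summed UMIs were 2736515 and 2548929. The labelled read depths were 63967 and 54044 reads per cell. The cell types recovered beside the members differed between the libraries: by 6-gene marker rules, oligodendrocytes were 21.9% of kept barcodes in WT and 9.24% in 60TM, astrocytes 15.4% and 22.5%, microglia 33.4% and 32.7%, and choroid plexus cells 0.808% and 2.62%. The libraries shared 20 barcode sequences, none of them borne by a member.

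Members made up 4.44% of the kept WT barcodes (exact Clopper-Pearson interval 3.95 to 4.98) and 3.02% of the kept 60TM barcodes (2.65 to 3.41), so their share in 60TM was 0.678 times that in WT. Fewer cells, another yield from dissociation and other shares of the remaining cell types cannot be told apart in 1 pooled library each. Among all barcodes with at least 4 of the 6 genes, 286 of 363 in WT (78.8%) and 245 of 342 in 60TM (71.6%) were members. The other barcodes were mainly Dlx-positive, 41 in WT and 56 in 60TM, or dividing, 27 and 31. As a share of kept barcodes these stood at 0.637% and 0.689% for Dlx-positive cells and at 0.420% and 0.382% for dividing cells.

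Genes that the rule did not use fitted the label of young granule neurons. Calb2 stood at 785 CPM (UMIs scaled to a common library total) in WT members and at 685 CPM in 60TM members, and 73.1% and 69.8% of members held at least 1 UMI of it. Prox1 stood at 810 and 717 CPM. Neither Calb1 nor Slc17a7, the glutamate transporter gene of mature granule and pyramidal neurons, was more than sporadic: after each barcode was thinned to 2000 UMIs, Slc17a7 was found in 0.781% of WT and 0.493% of 60TM members that carried little glial RNA (defined below), and Calb1 in none of 256 in WT and in 0.493% in 60TM. A count of 0 in 256 allows up to 1.17% of barcodes with a UMI at that depth and sets no limit on cells that express the gene. Gad2, the GABA synthesis gene of interneurons, and Reln, the gene of Cajal-Retzius cells, were each found in none of the thinned WT barcodes and in 0.493% of the thinned 60TM barcodes. As a description of what the rule left, no member held a UMI of any of the 4 Dlx genes, a count of 0 that allows up to 1.05% of WT and 1.22% of 60TM barcodes with a UMI.

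Among barcodes thinned in the same way, Prox1 and Calb2 were found in a larger share of these members than of microglia. The microglia were chosen to hold at most 1 of the 6 rule genes, and likely doublets were left out. Barcodes with more neuronal RNA were thus removed beforehand, and the microglial shares cannot give the level of free RNA. Prox1 was found in 70.3% of WT and 74.9% of 60TM members, against 3.71% of microglia in either library, and Calb2 in 60.9% and 56.7% against 0.0482% and 0.158%. Median depths before thinning were 8535 and 8308 UMIs in these members and 5553.5 and 6621 in microglia. Neurod6, a factor of pyramidal neurons, was found in 10.5% and 10.3% of the members, and Slc17a6, the transporter gene of young glutamatergic neurons, in 6.25% and 6.90%.

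**Figure D1:**
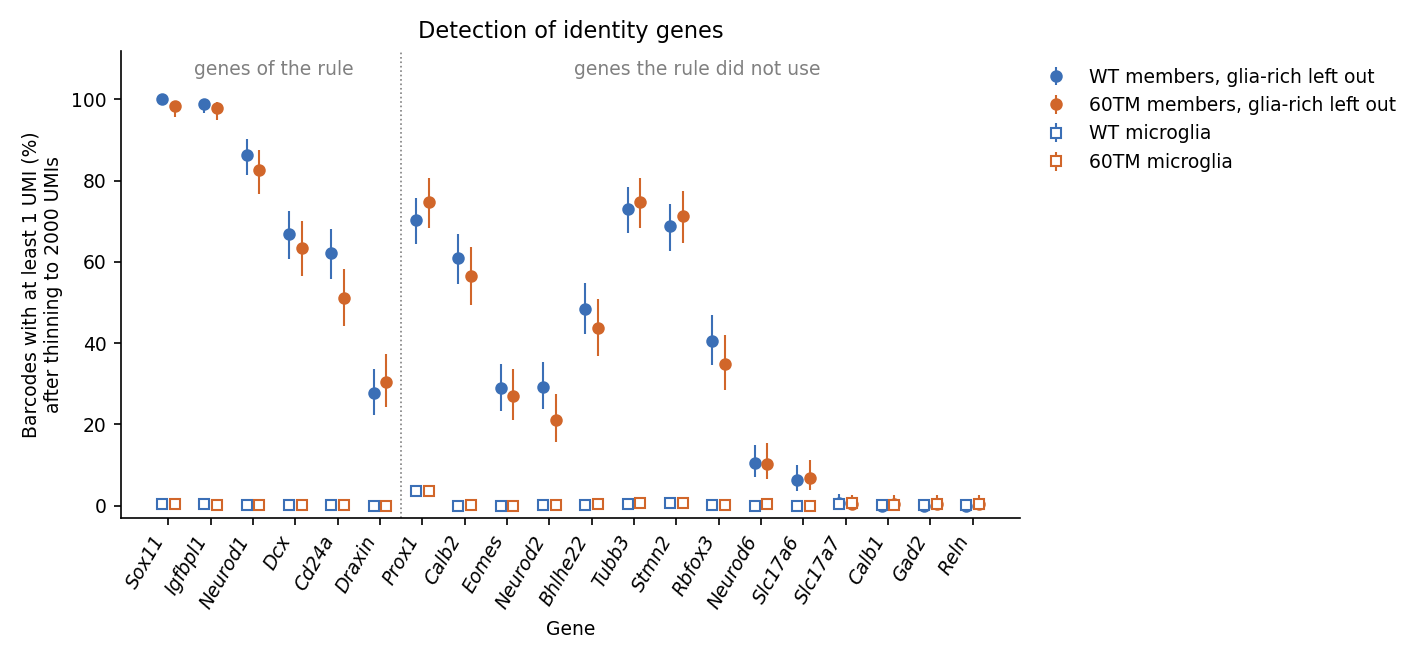
Share of barcodes with at least 1 UMI of each gene (%) after thinning to 2000 UMIs, for members with glia-rich barcodes left out (filled points) and microglia (open squares) of the WT and 60TM libraries; bars are exact 95% binomial intervals of counting. Prox1, Tubb3 and Stmn2, which the rule did not use, are found in most members and in few microglia, while Calb1, Gad2, Reln and Slc17a7 are near 0 in both cell types.

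The members spanned the step from Eomes to Calb2. Counting any UMI, 20.6% of WT members held Eomes without Calb2, 42.7% Calb2 without Eomes, 30.4% both and 6.29% neither. The corresponding shares in 60TM were 24.9%, 40.4%, 29.4% and 5.31%. These shares move with depth. Thinned to 2000 UMIs and with little glial RNA, 19.5% of WT members held Eomes alone, 51.6% Calb2 alone, 9.38% both and 19.5% neither, and in 60TM the shares were 18.2%, 47.8%, 8.87% and 25.1%. Calb2 alone was the most frequent state at either depth in both libraries.

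Measured against all other kept barcodes, the genes outside the rule that stood out most in the members were Gal, the precursor of the neuropeptide galanin, Tac2, the precursor of neurokinin B, the protease gene Adamts18, the somatostatin receptor gene Sstr2, and the transcription factor genes Scrt2 and Prdm8. Gal stood at 43.5 CPM in WT members and 26.3 CPM in 60TM members, at least 405 times the level of the other barcodes in either library. Tac2 stood at 320 and 235 CPM, and was held by 38.8% of WT and 33.1% of 60TM members. Scrt2 was broader, with UMIs in 70.3% and 62.4% of members, and Prdm8 was held by 61.2% and 63.3%. Calb2, Syt2, Gm20208, Adra2c, Neurod4 and Nhlh1 followed, the last of them at 73.1 CPM in WT against 67.5 CPM in 60TM. These ratios describe the cells the rule picked and were not tested.

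At the edge of the rule Calb2 and Prox1 were lower outside it than inside. Barcodes with exactly 4 of the 6 genes, 29 in WT and 43 in 60TM, held Calb2 at 333 and 266 CPM and Prox1 at 383 and 315 CPM, with the astrocyte gene Apoe at 750.0 and 3906 CPM. Barcodes with 3 of the 6, 34 in WT and 32 in 60TM and just outside the rule, held Calb2 at 5.03 and 26.1 CPM, Prox1 at 171 and 97.4 CPM and Apoe at 6037 and 3000 CPM. Apoe was thus lower at 4 genes than at 3 in WT and higher in 60TM. Members with 5 and 6 genes held Apoe at 815 and 530 CPM in WT and at 1280 and 929 CPM in 60TM. These values lay below those at 3 genes in both libraries. The members with 4 genes were 10.1% of all members in WT and 17.6% in 60TM. Those with all 6 were 51.4% and 48.2%.

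A minority of the members carried the RNA of a second cell type. For each barcode the UMIs of marker lists for astrocytes and radial glia, microglia, oligodendrocytes, their precursors, endothelial cells, mural cells, and choroid plexus with ependyma were taken as a share of all UMIs. A barcode was called glia-rich when 1 of these lists reached 0.5%, a limit chosen after the values had been seen. There were 26 glia-rich members in WT (9.09%, interval 6.02 to 13.0) and 38 in 60TM (15.5%, 11.2 to 20.7). They were deeper than the remaining members, with medians of 15126.5 and 16616 UMIs against 8535 and 8308, and held 15.7% of the members' UMIs in WT and 30.3% in 60TM. Scrublet, which scores barcodes for likeness to simulated doublets, marked 24 of the 26 and 31 of the 38, and it marked no other member.

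The second cell type was not the same in both libraries. In WT, 10 members passed the limit for oligodendrocyte markers, 10 for astrocyte and 8 for microglial markers, and 1 each for oligodendrocyte precursors and choroid plexus; a barcode could pass more than 1 limit. In 60TM, 21 passed it for astrocyte and 15 for microglial markers, 3 for oligodendrocyte markers, 2 for choroid plexus, and 1 each for precursors and endothelial cells. The highest share reached 11.3% in WT, for oligodendrocyte markers, and 29.4% in 60TM, for choroid plexus markers. The counts for oligodendrocyte and astrocyte markers ran in the same direction as the recovery of those cells given above, and the microglial count did not. The counts over all genes and the marker lists are therefore given with all members and without the glia-rich ones, and most later values without them, which leaves 260 WT and 207 60TM barcodes with 2306377 and 1776212 UMIs.

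**Figure D2:**
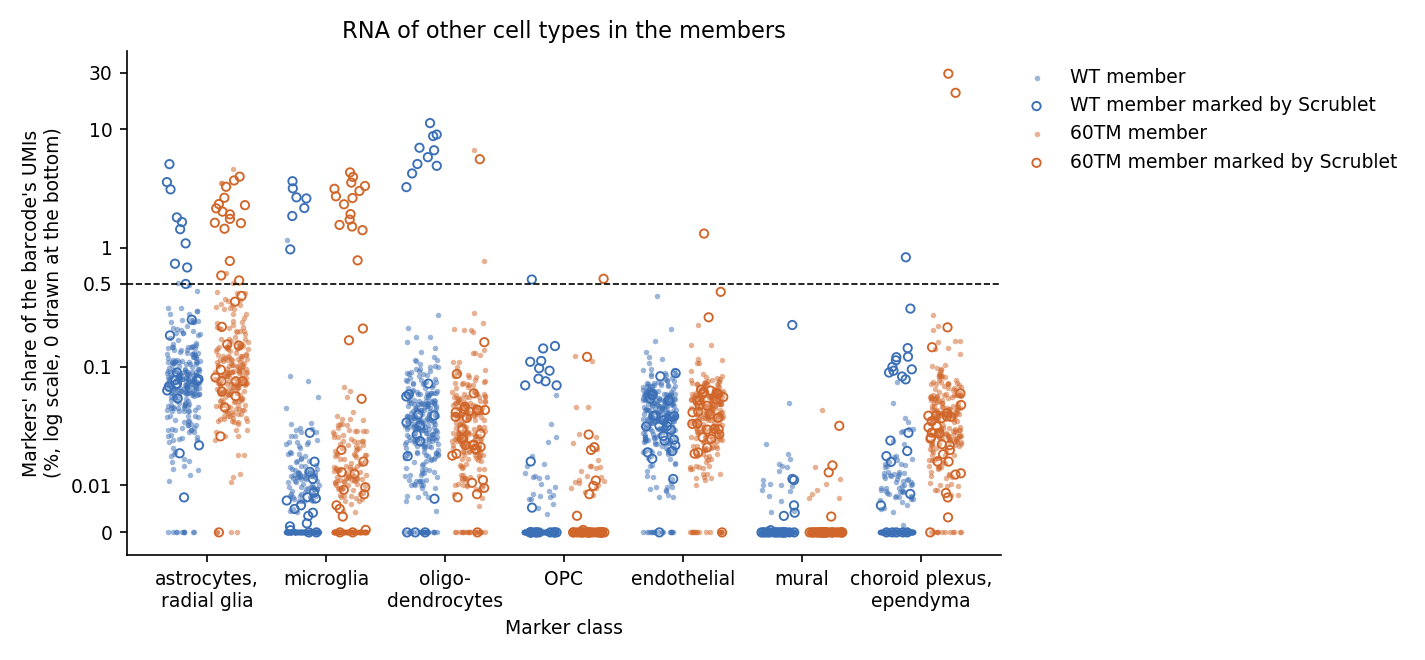
Share of each member's UMIs (%, log scale, 0 drawn at the bottom) that belongs to the marker list of each other cell type. Each point is a member of the WT or 60TM library, and the dashed line is the limit of 0.5%. Open circles mark the barcodes with the highest Scrublet scores, up to an expected number of doublets. Most members lie under the line, with the WT points above it reaching highest for oligodendrocyte markers and the 60TM points most numerous for astrocyte and microglial markers.

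UMIs were summed over the members of each library, scaled to CPM, and compared for genes with at least 100 UMIs in both libraries together. Over all members 7224 genes could be compared. Of these, 288 were at least 1.5-fold higher in 60TM (3.99%) and 211 at least 1.5-fold lower (2.92%). At the 2-fold limit, 141 were higher (1.95%) and 51 lower (0.706%). Without the glia-rich members 6074 genes reached 100 UMIs, and 88 were 1.5-fold higher (1.45%) and 80 lower (1.32%), with 11 (0.181%) and 7 (0.115%) past 2-fold. The genes called in both sets were 40 of the higher ones, 13.9% of the larger list and 45.5% of the smaller, and 49 of the lower ones, 23.2% and 61.3%. The summed transcriptomes were otherwise close: 93.1% of the genes over all members, and 97.2% without the glia-rich ones, lay within 1.5-fold.

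**Figure D3:**
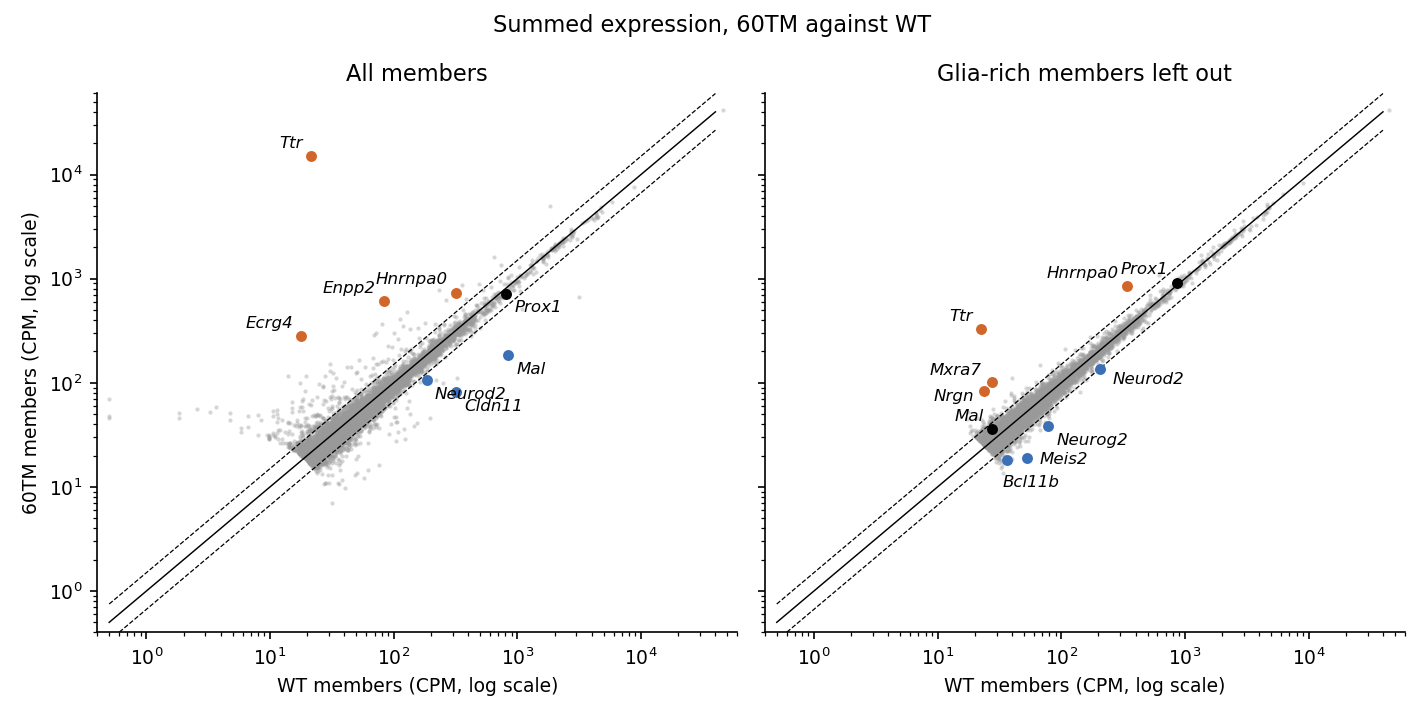
Summed expression of each compared gene in 60TM members against WT members (CPM, log scales), for all members on the left and with glia-rich members left out on the right; the solid line marks equality and the dashed lines a ratio of 1.5. Ttr, Ecrg4, Enpp2 and Mal lie far from the line on the left, whereas on the right Mal lies within the dashed lines and Ttr, Hnrnpa0, Mxra7, Meis2 and Neurog2 outside them.

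With all members, the genes highest in 60TM were those of the choroid plexus epithelium. Ttr, which encodes the thyroxine carrier transthyretin, had 59 UMIs in WT and 38528 in 60TM, a ratio of 701 (543 to 921). A single barcode held 74.7% of the 60TM UMIs of Ttr, and the glia-rich barcodes together held 98.5%. Ecrg4 (49 and 710 UMIs, ratio 15.6) and Enpp2, which encodes autotaxin (229 and 1555 UMIs, ratio 7.29), were of the same kind. Folr1 and Prlr had no UMI in WT members and 123 and 117 in 60TM. Klf2, which microglia express, had 7 and 142 UMIs.

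The genes lowest in 60TM members were those of myelin. Mal, a membrane protein of myelin, had 2318 UMIs in WT and 468 in 60TM, a ratio of 0.22. Mag, Pllp, Cldn11, Mog, Pdlim2, Tspan2, Mobp, Ugt8a, Opalin and Lgi3 were also among the 12 lowest, with ratios between 0.21 and 0.27. Without the glia-rich members the ratio of Mal was 1.30 (64 and 64 UMIs). Tspan2, Mobp, Ugt8a and Opalin lay between 1.04 and 1.35 there, and Mag, Cldn11, Mog and Lgi3 between 0.69 and 0.94. Pllp (15 and 4 UMIs) and Pdlim2 (17 and 5 UMIs) stayed low, at 0.35 and 0.38. The intervals of all these genes included 1 in that set.

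Whole marker lists of glia also differed. All 12 microglial markers were at least 1.5-fold higher in 60TM over all members, with a summed level of 850.0 CPM in WT against 2692 CPM in 60TM, and none of the 12 reached 100 UMIs without the glia-rich members, where the sums were 56.4 and 81.6 CPM. All 10 oligodendrocyte markers were lower over all members (5566 and 1303 CPM) and none of the 4 measured was past 1.5-fold without them (365 and 338 CPM). Of 14 astrocyte and radial glia markers, 9 of 12 measured were higher over all members (a summed ratio of 2.21), and 3 of 8 measured, Clu and Aldoc among them, without the glia-rich ones (921 and 1085 CPM). The summed level of this list thus remained higher in 60TM without them, by a ratio of 1.18 (1.11 to 1.25). The immediate early genes Fos and Jun and the MHC class I genes B2m and H2-D1 were past the limit over all members alone. There Jun stood at a ratio of 2.12 and B2m at 3.42. Without the glia-rich barcodes none of the 11 immediate early genes and none of the 3 MHC class I genes measured was past 1.5-fold, and the medians of the log2 ratios were 0.09 and -0.08.

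The remaining results concern the members without the glia-rich barcodes unless stated. Of the transcription factors of the granule lineage, 31 of 32 listed were measured, and 4 were lower in 60TM past 1.5-fold and none higher. Among all genes compared, 1.32% were lower and 1.45% higher past that limit. The same 4 factors were past it over all members, where 2.92% of all genes compared were lower. The 4 factors were Neurod2, Bcl11b, Neurog2 and Meis2. The median log2 ratio of the list was 0.02, against 0.00 over all genes compared. Zbtb20 (6166 and 6467 CPM), Tcf4 (5196 and 5279 CPM) and Nfib (4666 and 4725 CPM), the factors with the most UMIs apart from the rule's Sox11, stood within 5% of each other in the libraries. Prox1 stood at 862 CPM in WT against 915 CPM in 60TM, a ratio of 1.06 (0.995 to 1.14).

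Neurod2, a basic helix-loop-helix factor of postmitotic excitatory neurons (chromosome 11, 98325415 to 98329648, GRCm38), had 476 UMIs in WT and 239 in 60TM, or 206 and 135 CPM. Its ratio was 0.65 (0.56 to 0.76), and 61.9% of WT members held it against 50.2% of 60TM members. Thinned to 2000 UMIs the shares were 29.3% and 21.2%, and over all members the ratio was 0.57. Bcl11b, a zinc finger factor of differentiating granule neurons also known as Ctip2 (chromosome 12, 107910403 to 108003602), had 84 and 32 UMIs, a ratio of 0.495 (0.318 to 0.751), in 17.3% and 8.70% of the members, with 10.7% and 21.9% of the UMIs in 1 barcode. Both genes thus differed in the level and in the share of cells that held them.

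Neurog2 and Meis2 were the other factors past the limit. Neurog2, the proneural factor of intermediate progenitors, had 181 UMIs in WT and 68 in 60TM, a ratio of 0.488 (0.364 to 0.648), but was held by 14.2% and 12.1% of the members, shares that are close. A single barcode held 15.5% of its UMIs in WT and another 22.1% in 60TM. In the dividing cells, glia-rich barcodes included, Neurog2 was higher in 60TM, at a ratio of 1.38 (1.01 to 1.89, 69 and 111 UMIs). Whether its ratio differs between the members and the dividing cells was not tested. Meis2, a homeobox factor that is high in the Dlx-positive neuroblasts of the same libraries, had 122 and 34 UMIs, a ratio of 0.362 (0.240 to 0.533), in 5% and 2.90% of the members. A single barcode held 18.9% of its UMIs in WT and another 35.3% in 60TM.

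The proximal promoters of Neurod2 and Prox1 are shown because these factors took different courses, Neurod2 being lower in 60TM and Prox1 near parity, while both promoters hold the same letters. The sequences are the 250 bases before the RefSeq start site in GRCm38.p6, on the minus strand of chr11:98329646-98329895 and chr1:190170828-190171077, written 5′ to 3′ with the E-box CAGATG in capitals.
Neurod2: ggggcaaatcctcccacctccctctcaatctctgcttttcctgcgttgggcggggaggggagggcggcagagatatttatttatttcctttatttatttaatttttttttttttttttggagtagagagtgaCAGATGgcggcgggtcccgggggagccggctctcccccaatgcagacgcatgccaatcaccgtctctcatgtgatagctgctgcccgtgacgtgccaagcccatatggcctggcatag
Prox1: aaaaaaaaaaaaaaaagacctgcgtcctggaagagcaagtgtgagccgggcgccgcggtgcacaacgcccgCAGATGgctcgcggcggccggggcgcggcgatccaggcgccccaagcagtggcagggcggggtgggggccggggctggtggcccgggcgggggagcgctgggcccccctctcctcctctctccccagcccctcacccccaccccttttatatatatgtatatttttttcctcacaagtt
E-boxes are the elements that basic helix-loop-helix factors such as Neurod1, Neurod2 and Neurog2 can bind. The form CAGATG, or its complement CATCTG, begins 118 bases before the start of Neurod2 and 179 bases before that of Prox1. It was found in 3 of the 27 listed factors whose RefSeq window was searched (11.1%), Nfia being the other, and in 14.5% of 27025 windows of all genes. Listed factors on a single chromosome were not searched, while the windows of all genes include it. The letters were therefore no more common in the searched factors than in all genes, and a match does not show a binding site.

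The genes of the early neuroblast stage were level between the libraries. Of 18 genes listed and measured, Neurog2 alone was past 1.5-fold, and the median log2 ratio was -0.08. Sox4, a partner of Sox11 in neuronal commitment, stood at 2950 and 3589 CPM, and Eomes at 281 and 275 CPM. Of the immature granule neuron genes, 19 of 21 were measured, none was higher past 1.5-fold, and Neurod2 and Gal were lower. Gal had 116 UMIs in WT and 54 in 60TM, a ratio of 0.60 (0.43 to 0.84). Calb2 (873 and 838 CPM), Stmn2, a microtubule regulator of growth cones (798 and 811 CPM), and Fxyd6 (652 and 643 CPM) differed by less than 5%. The rule's own genes, some of which these lists hold, are given as description alone: Igfbpl1 stood at 3023 and 3168 CPM, Sox11 at 4781 and 4898 CPM, Dcx at 642 and 635 CPM and Cd24a, a surface glycoprotein, at 489 and 384 CPM, a ratio of 0.79.

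The cytoskeletal and guidance genes that build the young neuron's processes were also level. Of 32 microtubule and growth cone genes measured of 34, Dpysl4 was lower and none was higher, and the median log2 ratio was -0.02. Dpysl4 encodes a collapsin response mediator protein that acts downstream of guidance cues. It stood at 54.2 CPM in WT against 27.6 CPM in 60TM, a ratio of 0.509 (0.358 to 0.714), and was held by 31.9% and 19.3% of the members. Tuba1a (4801 and 4753 CPM) and Stmn1 (4433 and 4345 CPM) lay within 2% of parity. None of 31 axon guidance and adhesion genes measured of 43 was past 1.5-fold. Ncam1 stood at 846 and 904 CPM and Plxna2, a semaphorin receptor gene, at a ratio of 0.72 (0.63 to 0.82), inside the limit.

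No synaptic list held a gene past 1.5-fold. Of the glutamate receptor genes 8 of 22 were measured, with Gria2 at 1456 and 1289 CPM and Grin2b at 135 and 147 CPM. Of the GABA and chloride genes 6 of 16 were measured. Slc12a2, the importer that keeps chloride high in young neurons, stood at 46.0 and 55.7 CPM, a ratio of 1.21 (0.913 to 1.61). The 19 presynaptic genes measured of 23 had a median log2 ratio of 0.08, and the 12 ion channel genes measured of 22 one of -0.14.

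The mature granule neuron genes needed a closer reading. Only 4 of 23 reached 100 UMIs, and 2 of these, Nrgn and Stxbp6, were past 1.5-fold higher in 60TM. A single 60TM barcode of 24384 UMIs held 454 UMIs of the list, where the next highest 60TM barcode held 25, the highest WT barcode 35 and the median barcode of either library 4. It held 108 of the 149 Nrgn UMIs. Without it the ratio of Nrgn, which encodes the postsynaptic calmodulin-binding protein neurogranin, was 0.98 (0.64 to 1.5) in place of 3.52, that of Stxbp6 was 1.44 in place of 2.13, and neither reached 100 UMIs. The ratio of Bcl11b without it was 0.39 (0.24 to 0.62), and that of Neurod2 was 0.65 either way. This barcode was singled out after its values had been seen.

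**Figure D4:**
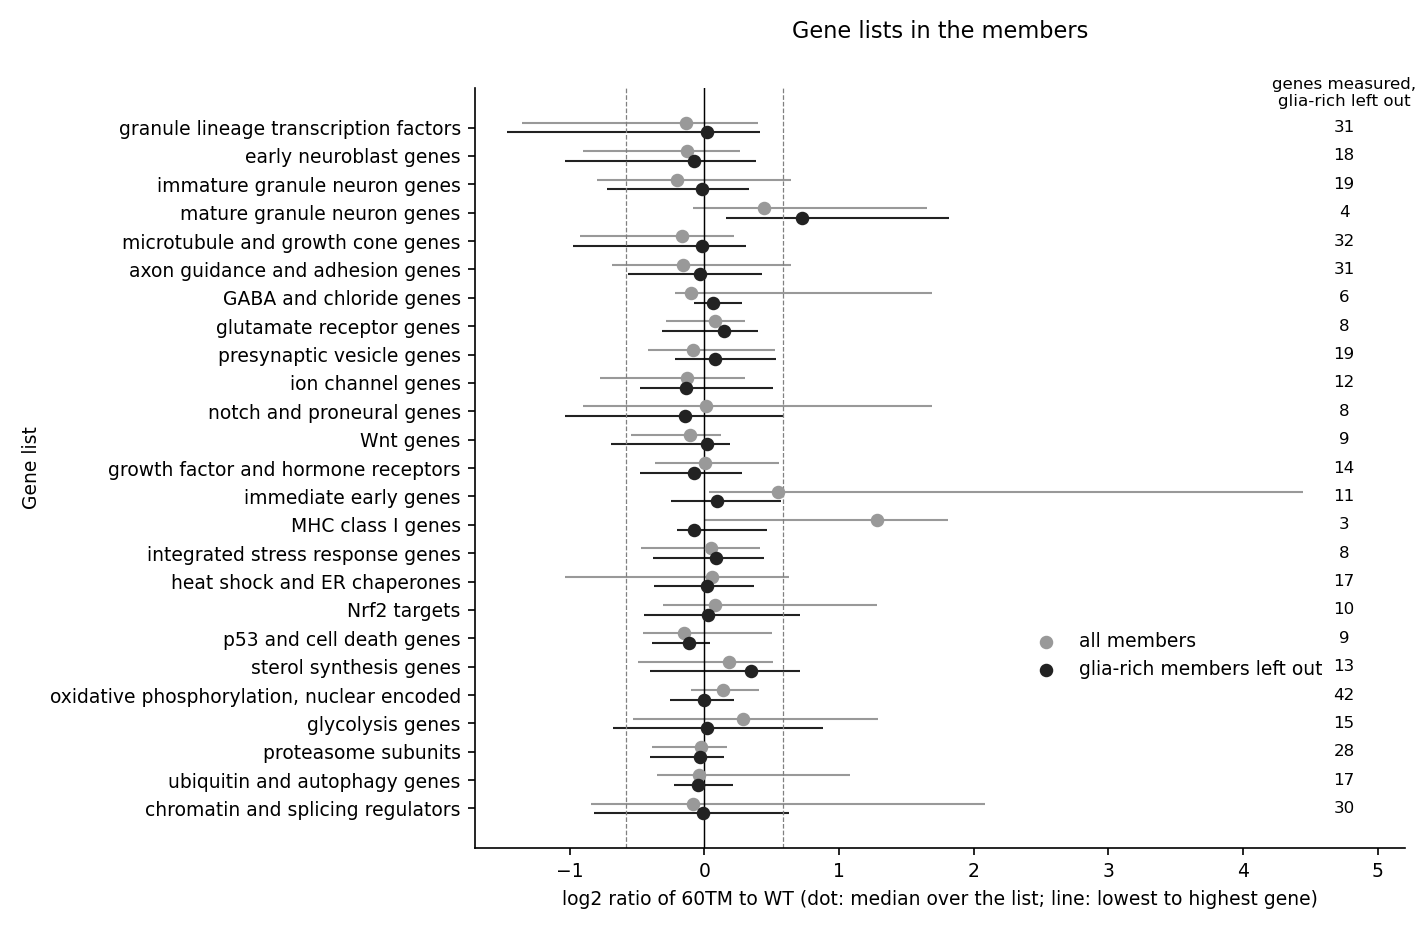
Median log2 ratio of 60TM to WT over the measured genes of each list (dots) with the lowest and highest gene (lines), for all members (grey) and with glia-rich members left out (black); dashed vertical lines mark a ratio of 1.5, and the numbers give the genes measured in the second set. The black medians lie close to 0 except for the mature granule neuron genes at 0.73, which rest on 4 genes and 1 barcode, and the sterol synthesis genes at 0.35.

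Signalling and stress lists showed few genes past the limit. Of 9 Wnt genes measured Tcf7l2 was lower (0.62, and 0.69 over all members), and of 8 Notch and proneural genes 1 was higher and 1, Neurog2, lower. None of 14 growth factor and hormone receptors, 8 integrated stress response genes, 17 heat shock and ER chaperones or 9 p53 and cell death genes was past 1.5-fold. Hsp90ab1, the most abundant chaperone gene, stood at 2883 and 3008 CPM, and Atf4, the central factor of the integrated stress response, at 51.6 and 60.2 CPM. Of the Nrf2 targets, which answer oxidative and metal stress, 10 were measured and the metallothionein gene Mt1 alone was past the limit, at 170 and 278 CPM, a ratio of 1.63 (1.43 to 1.87). Of the interferon-stimulated genes 2 of 22 reached 100 UMIs, and Ifi27 was higher at a ratio of 2.60.

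Among lists with at least 3 genes measured, leaving aside those of cell type markers, sterol synthesis had the median farthest above parity apart from the mature granule genes. Of its 13 genes measured of 24, the median log2 ratio was 0.35, and Hmgcs1 and Insig1 were past 1.5-fold. Hmgcs1, an enzyme of cholesterol synthesis, stood at 94.1 and 154 CPM, a ratio of 1.64 (1.37 to 1.97). Insig1, a feedback regulator of that pathway, had a ratio of 1.59. Cyp51, at 1.49, was on the same side without passing the limit. Over all members the median of the list was 0.19 and no gene was past 1.5-fold. In the same glia-poor members the astrocyte and radial glia markers had a median of 0.47 and a summed ratio of 1.18 (1.11 to 1.25), against 1.30 (1.23 to 1.39) for the sterol genes, and their part in the sterol ratios was not tested.

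The housekeeping lists lay at parity. All 42 nuclear-encoded genes of oxidative phosphorylation were measured, none was past 1.5-fold, and the log2 ratios ran from -0.26 to 0.22. The same held for 28 proteasome subunits (-0.40 to 0.15) and for 17 of 18 ubiquitin and autophagy genes. Of 15 glycolysis genes Hk1, the main neuronal hexokinase gene, was lower (0.62, and 0.69 over all members) and Aldoc, an aldolase gene that astrocytes use, higher (1.84). Among 30 chromatin and splicing regulators Tet2 was higher (1.54) and Rbfox1, a neuronal splicing factor, lower, at 74.6 and 42.2 CPM, a ratio of 0.566 (0.426 to 0.747).

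The genes with the firmest differences in the members were then set beside the other cell types of the same libraries. Ttr remained the highest, at 22.5 CPM in WT against 327 CPM in 60TM, a ratio of 14.5 (10.9 to 19.7), and it was found in 18.1% and 91.3% of the members. Microglia, which should lack it, held Ttr UMIs in 18.9% of WT and 90.5% of 60TM barcodes, and its ratio was 10.6 in microglia, 9.68 in oligodendrocytes and 13.1 in astrocytes. Thinned to 2000 UMIs the shares with Ttr were 3.91% and 46.8% in the members and 6.89% and 52.2% in microglia. At that depth the share in the members was under that of a cell type that lacks the gene in both libraries, and it is not read as expression by the members.

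Hnrnpa0, which encodes an RNA-binding protein (chromosome 13, 58125879 to 58128556), stood at 343 CPM in WT against 851 CPM in 60TM members, a ratio of 2.48 (2.28 to 2.71), and was held by 88.1% and 98.1% of them. The ratio was 2.23 in microglia, 2.31 in oligodendrocytes and 2.16 in astrocytes. Eid2, a transcriptional inhibitor, had a ratio of 2.75 (2.14 to 3.56) in the members and of 1.86, 2.33 and 2.30 in these cell types. Lars2, Gm42418 and AY036118 were also higher in the members and in each of these cell types. The dividing cells with at least 4 of the 6 rule genes, glia-rich barcodes included, were less alike. There Hnrnpa0 stood at 3.06 and Eid2 at 1.71 (0.979 to 3.10). Lars2 stood at 1.02, AY036118 at 1.05 and Gm42418 at 0.725 (0.652 to 0.805), lower in 60TM. Among the lower genes Gm47283 (0.574), Gm3448 (0.466) and Phpt1, a phosphatase gene (0.531), lay below 0.7 in the members and in the 3 glial classes alike. Whether other gene copies share reads with these gene models was not tested. Gm47283 lies on chromosome Y. Of the 6 listed sex-linked marker genes 4 were measured in the members, and none was past 1.5-fold. The part of the sex of the pooled mice in the ratio of Gm47283 was not tested.

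Mxra7, named for a link to matrix remodelling, differed in fewer cell types. It stood at 27.7 CPM in WT against 102 CPM in 60TM members, a ratio of 3.69 (2.76 to 4.99), and was held by 18.8% and 48.8% of the members. Its ratio was 10.7 in astrocytes, 9.68 in choroid plexus cells, 0.998 in microglia and 0.694 in oligodendrocytes. In the dividing cells with at least 4 of the 6 rule genes it was 9.16. Mt3, the brain metallothionein gene, stood at 107 and 212 CPM in the members, a ratio of 1.98 (3.34 over all members), with 1.67, 2.12 and 1.23 in microglia, oligodendrocytes and astrocytes. Clu, which encodes the lipid carrier clusterin, stood at a ratio of 2.22 in the members on 48 and 82 UMIs, against 1.48, 1.37 and 1.01. With glia-rich barcodes included, the ratios were 5.34 for Mt3 and 7.29 for Clu in dividing cells. They were 9.21 (5 and 76 UMIs) and 3.74 (6 and 37 UMIs) in Dlx-positive cells. In glia-poor Dlx-positive cells Mt3 stood at 2.76 (1.01 to 9.42, 5 and 20 UMIs). Clu stood there at 1.61 (0.582 to 5.12) and Mxra7 at 1.48 (0.568 to 4.29), intervals that include parity. Mt3 and Clu are known as astrocyte genes, and the part of astrocyte RNA in the ratios of Mxra7, Mt3 and Clu was not tested.

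Hrk, a pro-apoptotic gene of the BH3-only kind, stood at 39.0 CPM in WT against 79.4 CPM in 60TM members, a ratio of 2.03 (1.55 to 2.68), in 19.2% and 28% of them. Sbsn (78 and 24 UMIs, ratio 0.400), Tank (75 and 27 UMIs, ratio 0.467), Gm42047 (76 and 28 UMIs, ratio 0.478) and Clic1 (184 and 81 UMIs, ratio 0.572) were lower in 60TM. The ratios of Sbsn, Tank and Clic1 lay between 0.798 and 1.17 in the 3 glial classes. Those of Gm42047 were 0.943, 0.528 (13 and 4 UMIs) and 0.825 in microglia, oligodendrocytes and astrocytes, and 0.423 (0.274 to 0.642) in dividing cells. In glia-poor Dlx-positive cells Sbsn stood at 0.395 (7 and 4 UMIs) and Tank at 0.537 (9 and 7 UMIs), both with intervals that include 1. Gm42047 and Clic1 lay on the other side of parity there, at 1.73 (4 and 10 UMIs) and 1.61 (9 and 21 UMIs). Their intervals also include 1. Over all members Tank stood at 0.755 and Clic1 at 1.19, on the other side of parity. Each of these calls rests on few UMIs in 1 library per genotype.

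The members were ordered by a maturation score, the log2 ratio of UMIs of 23 mature granule neuron genes to UMIs of 18 early neuroblast genes, 1 being added to both. It was divided into tertiles, ranges of equal member number, at -4.37 and -3.26 over the members of both libraries, and a tertile is a range of the score and not a cell type. Over all members the early, middle and late tertiles held 32.9%, 33.2% and 33.9% of the WT members and 33.9%, 33.5% and 32.7% of the 60TM members. Without the glia-rich members the late tertile held 31.9% in WT (26.3 to 38.0) and 27.5% in 60TM (21.6 to 34.2), intervals that overlap. In this set 75 WT and 82 60TM barcodes lay within 0.25 of a limit. Early members had more UMIs than late ones, with medians of 9731 and 8102 in WT and of 9368 and 7579 in 60TM.

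Genes that the score did not use changed along it in both libraries. The values that follow leave out the glia-rich members and the single barcode with mature neuron RNA. Prox1 stood at 522, 974 and 1212 CPM in the early, middle and late WT tertiles and at 613, 972 and 1397 CPM in the 60TM tertiles. Calb2 stood at 475, 1131 and 1138 CPM in WT and at 463, 1022 and 1229 CPM in 60TM. Gria2, an AMPA receptor subunit gene, went from 830 to 2148 CPM in WT and from 868 to 1923 CPM in 60TM. Dcx was flat, at 615, 672 and 646 CPM in WT and 581, 733 and 598 CPM in 60TM.

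The genes with the highest late over early ratios, in the library where that ratio was lower, were Plppr4, Dpp6, Caly, Syt1 and Dab1. Syt1, the calcium sensor of vesicle release, stood at 10.9 and 108 CPM in the early and late WT tertiles and at 13.1 and 74.1 CPM in the 60TM tertiles. Those with the lowest ratios were Sox1, Cdca7, Mt2, Rmst and Robo2. Sox1, a factor of neural progenitors, stood at 30.6 CPM in the early WT tertile and at 71.4 CPM in the early 60TM tertile, and had no UMI in the late WT tertile and 2.55 CPM in the late 60TM tertile. Slc1a3, a glutamate transporter gene of radial glia and astrocytes, went from 272 to 78.9 CPM in WT and from 332 to 89.4 CPM in 60TM.

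Neurod2 was level between the libraries in the early tertile and lower in 60TM in the others. It stood at 91.9, 240 and 329 CPM along the WT tertiles and at 84.5, 139 and 215 CPM along the 60TM tertiles. The 60TM over WT ratios were 0.920 (0.647 to 1.30), 0.581 (0.448 to 0.750) and 0.652 (0.500 to 0.842), and whether they differ between the tertiles was not tested. Bcl11b was mainly a gene of the late tertile, with 97.4 CPM in WT against 30.7 CPM in 60TM, a ratio of 0.315 (0.154 to 0.589). Rbfox1 stood at 24.1, 83.2 and 136 CPM in WT and at 24.8, 37.1 and 74.1 CPM in 60TM. Neurog2, which is part of the score, lay at the other end, with 151 CPM in the early WT tertile and 86.0 CPM in the early 60TM tertile. Hnrnpa0 was higher in 60TM by a like factor in every tertile, at 329, 339 and 366 CPM in WT and 851, 887 and 830 CPM in 60TM.

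**Figure D5:**
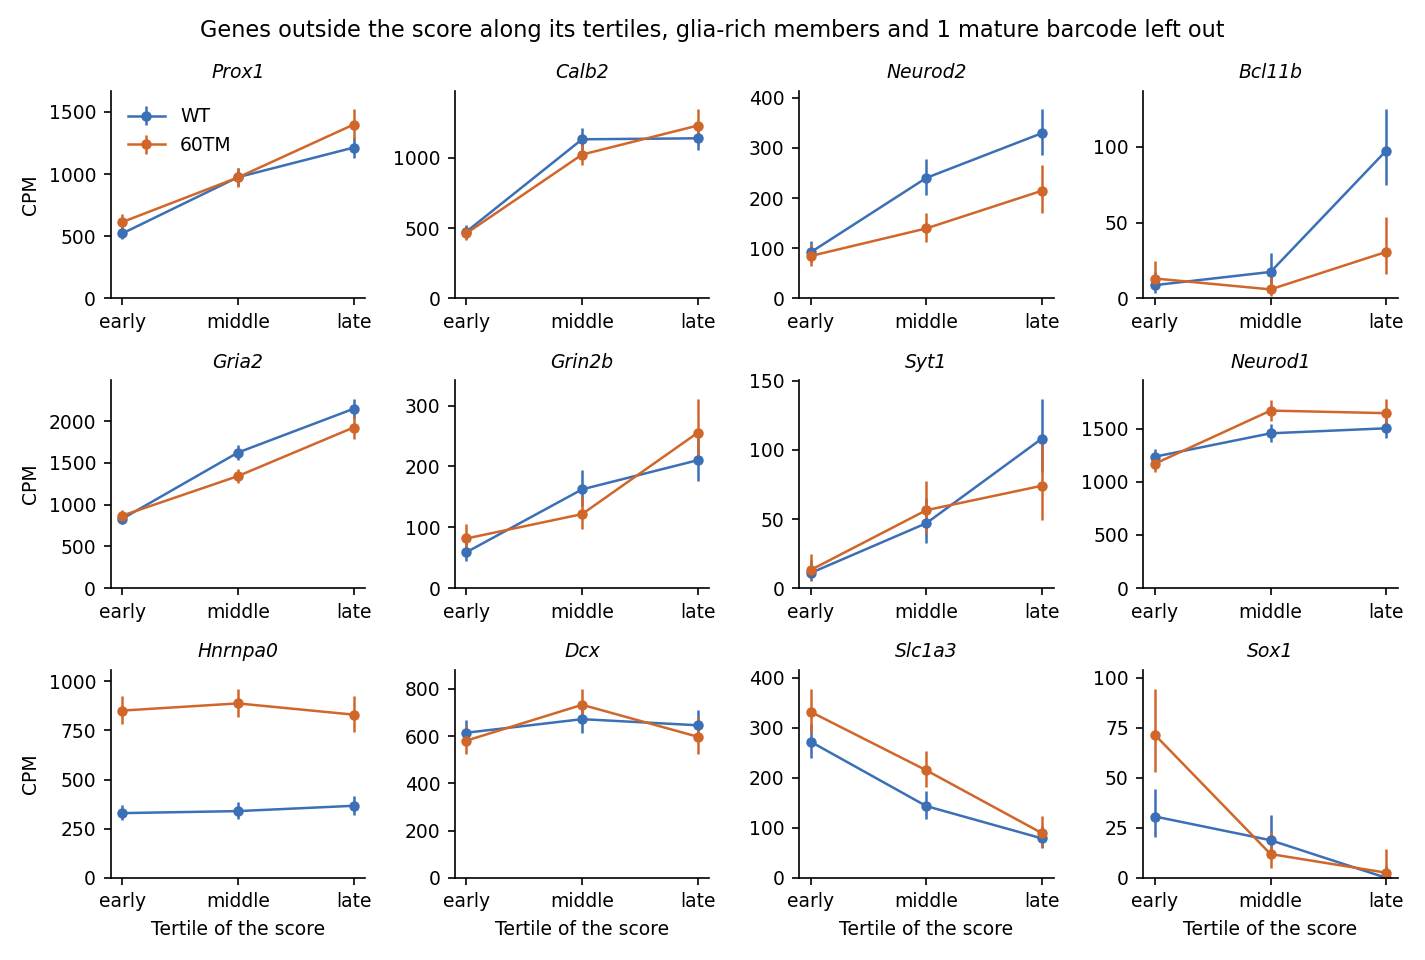
Level of 12 genes outside the score (CPM, each axis from 0) in the early, middle and late tertile of the maturation score for WT and 60TM members, with the glia-rich members and 1 barcode with mature neuron RNA left out; bars are exact 95% Poisson intervals of the summed counts. Prox1, Calb2 and Gria2 climb alike in both libraries, Neurod2 and Bcl11b lie lower in 60TM in the later tertiles, and Hnrnpa0 is higher in 60TM in all of them.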

How the data were processed

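Hippocampal cells of C57BL6/J and GFAP-hGFAP (60TM) mice were sequenced as 1 library per genotype. The deposited values are raw UMI counts per gene and barcode, made by the authors with Cell Ranger 5.0.0 on GRCm38, per the submitters' processing notes, and already limited to called cells. The annotation was not given in the sources used here. Gene positions came from GENCODE M21 (32235 of 32285 identifiers matched) and promoters from RefSeq (GRCm38.p6).

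Barcodes with 500 genes or more, and no more than 15% of UMIs from mitochondrial genes, were kept. Counts were summed over the members of each library and scaled to CPM. Ratios, for genes with at least 100 UMIs in both libraries together, carry exact conditional binomial intervals, and shares exact Clopper-Pearson intervals. They cover counting error alone, and with 1 library per genotype no test was possible. A fold against 0 UMIs uses a floor of 3 UMIs over the members of the library. A call means past 1.5-fold (lists) or 2-fold. Shares of cells with a UMI were taken after thinning to 2000 UMIs; shallower barcodes, 4 of 260 in WT and 4 of 207 in 60TM, were left out.

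Named genes were the 12 highest and 12 lowest ratios by the interval bound nearest to 1, the 20 leading genes against other barcodes, the 5 at each end of the maturation score, the rule's genes, and examples with the most UMIs or past 1.5-fold from each list. Mitochondrial, ribosomal protein, haemoglobin and listed sex-linked marker genes were not ranked, and some genes are not reported here. The members, the 26 lists and their markers were chosen with earlier results of these data known. Glial, microglial and choroid plexus classes needed 5 of 6 markers. They could hold at most 1 of the 6 rule genes, at most 3 markers of each other class and no Scrublet mark. Scrublet (scanpy 1.11.5) was run with expected doublet rates of 5.49% (WT) and 6.99% (60TM). The highest scores were marked up to these shares of all barcodes, in place of its automatic limit. The marks were used in an alternative and in choosing the glial, microglial and choroid plexus classes. They did not enter the choice of members in the main comparison. The calculations ran in Python 3.11.15 with numpy 2.4.6, scipy 1.17.1 and pandas 2.3.3, and were tested on simulated data. TMM factors came from edgeR 4.0.16, used for scaling alone. Alternatives changed the rule, the filters, the scaling, the minimum count, the doublets and the glial RNA admitted.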

Additional observations from a re-analysis of the deposited data

Results flagged for a closer look

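Hrk and Meis2 stood on opposite sides of parity in the members and in the Dlx-positive neuroblasts of the same libraries, both with glia-rich barcodes left out (40 Dlx-positive barcodes in WT and 52 in 60TM). The 60TM over WT ratio of Hrk was 2.03 (1.55 to 2.68) in the members and 0.600 (0.407 to 0.882, 61 and 53 UMIs) in the Dlx-positive cells. That of Meis2 was 0.362 (0.240 to 0.533) in the members and 1.13 (1.02 to 1.25, 614 and 1007 UMIs) in the Dlx-positive cells, where the gene is abundant. In the members Hrk had 90 and 141 UMIs and Meis2 122 and 34. Only 5% of WT and 2.90% of 60TM members held Meis2, with 18.9% and 35.3% of its UMIs in 1 barcode. The intervals do not cover such spread between barcodes. The difference between the cell types was not tested, since each value comes from 1 library per genotype.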

How the results depend on the processing

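No paired analysis was possible because each genotype is 1 library. The share of members in 60TM stayed below that in WT in all alternatives, at 0.603 to 0.731 times except 0.534 where members with markers of a second glial type were left out. Shares that moved were, in WT, 2.05% under that setting and 3.95% after thinning. In 60TM they were 1.10% and 2.53% under these settings, 2.49% with 5 of 6 rule genes, 3.48% with limits of 200 genes and 5% mitochondrial UMIs, 2.55%, 2.39% and 2.62% at glial limits of 0.5%, 0.3% and 1%, and 2.54% with the mature neuron barcode also left out. The numbers of genes at least 1.5-fold higher, 1.5-fold lower, 2-fold higher and 2-fold lower (288, 211, 141 and 51) moved with doublets, glial RNA, the minimum count and thinning. They were 109, 82, 32 and 6 without Scrublet's doublets, 48, 62, 7 and 4 without members with second-type markers, 88, 80, 11 and 7 at the 0.5% limit, 83, 81, 11 and 6 at 0.3%, 93, 82, 11 and 6 at 1%, 84, 82, 9 and 7 with the mature barcode also left out, 567, 423, 266 and 111 from 50 UMIs, 82, 43, 49 and 25 from 300 UMIs, and 48, 36, 16 and 3 after thinning. With 3 of 6 rule genes 448 were 1.5-fold and 161 2-fold lower. The 2-fold higher number was 79 with 5 of 6 genes, 84 with no exclusion gene admitted and 79 by means over cells, where 33 were 2-fold lower. Several directions over all members turned. With 3 of 6 genes the choroid plexus list had a median log2 ratio of -0.95, and the ratios were 0.878 for Mt3, 0.655 for Clu and 1.07 for Bcl11b. Nrgn was at 0.960 with 5 of 6 genes and Enpp2 at 0.594 with no exclusion gene. Without Scrublet's doublets the median of MHC class I genes was -0.11 and that of oligodendrocyte markers 1.35, with Mal at 4.25, Mag 2.65, Pllp 1.18, Cldn11 2.56, Mog 3.29, Pdlim2 1.42, Tspan2 3.43, Mobp 2.93, Ugt8a 3.04, Opalin 3.69 and Lgi3 1.15. Without members with second-type markers Mag was at 1.28 and Mobp 2.26. At the 0.5% limit MHC class I stood at -0.078, Mal 1.30, Tspan2 1.35, Mobp 1.34 and Opalin 1.08; at 0.3% Mal 1.32, Tspan2 1.46, Mobp 1.29 and Opalin 1.11; at 1% MHC class I -0.11, oligodendrocyte markers 0.16, Ecrg4 0.799, Mal 1.40, Tspan2 1.44, Mobp 1.74, Ugt8a 1.28 and Opalin 1.07. With the mature barcode also left out MHC class I stood at -0.058, Mal 1.30, Tspan2 1.37, Mobp 1.36, Opalin 1.10 and Nrgn 0.981. Apart from the settings' own construction, the cause was not tested. The glial limits and the mature barcode were chosen after seeing the data. TMM scaling shifted log2 ratios by 0.01. Depth limits genes under 100 UMIs, among them 19 of 23 mature granule neuron genes.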
